A study of Mus musculus with 8 samples.

Results

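Palladin (Palld), Lmcd1 and 7 further genes of the actin cytoskeleton were followed across mouse rib cartilage chondrocytes with altered Mir140, a microRNA gene expressed characteristically in cartilage. The 9 genes were taken by symbol from the 18501 genes listed, and all 9 passed a filter on low counts that left 14359 genes. Palld, Lmcd1 and Myo1d were chosen by their measured log2 fold changes in the mutant comparisons of these same libraries, so their differences are given as a description with no p-value. The other 6 (Acta2, Tagln, Cnn1, Myl9, Tpm1 and Tpm2) are contractile genes, chosen with earlier results of these data known, and their p-values come from a fit over all genes tested.

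The cells came from CD1 mice aged 10 days and were released from rib cartilage by collagenase, plated and extracted for RNA. There were 2 libraries in each of 4 groups, with total counts from 26536868 to 28678641 per library. CG mutants carried a mutation in the seed of the 3p arm of Mir140 and were set against CG wild types. CT mutants carried a C>T change at Mir140 and were set against wild types of their own, the CT wild types. The series design text says that both mutations raise the 5p arm. The labels give no zygosity and do not say whether replicates are separate animals. Reads of Ddx3y, a gene of the Y chromosome, numbered 2231 and 2360 in the CG mutants, against 2 and 2511 in the CG wild types. The CT mutant libraries had 3512 and 30 reads, against 3669 and 10 reads in their wild types. The replicates of every group but the CG mutants are thus from different animals, and for the CG mutants the spread between libraries may be technical. Chondrocyte markers were abundant in all 8 libraries, with Col2a1 between 4855 and 10637 FPKM and Acan between 387 and 833 FPKM (fragments scaled by transcript length and sequencing depth). CG mutant replicate 1 stood apart from the rest of its line, at 53.3 on the second principal component where CG mutant replicate 2 lay at -10.5.

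In tissue, chondrocytes are rounded cells with actin held mainly beneath the membrane. On a culture surface they can spread and build stress fibres, bundles of actin and myosin that pull on adhesions to the matrix. Many genes for such bundles are switched on by serum response factor (SRF) with its myocardin-related cofactors, which bind a DNA element called the CArG box. Palladin is a scaffold that cross-links actin in stress fibres and adhesions, and Lmcd1 is a LIM-domain protein known in heart muscle for restraining GATA6 and acting on calcineurin signalling.

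The sequences through which the altered microRNA and SRF could be read are shown first, as descriptions. The mature 3p arm from RefSeq (GRCm38.p6) has its seed, bases 2 to 8, in capitals, since this is the stretch that the CG mutation is labelled as hitting; the table held no entry named mmu-miR-140-5p. The second line is the 7-base complement of that seed, in capitals, within the longest GENCODE M21 3′ UTR of Palld (GRCm38).
mmu-miR-140-3p: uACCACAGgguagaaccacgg
Palld site: cttgcttacaatCTGTGGTgaata
The Palld site begins at base 594 of a 1919-base UTR. Palld was the 1 member of 9 with this match, which 3318 of 17423 genes carried (19%). A match is a run of letters and was not tested as a site of action. Palld and Mir140 both lie on chromosome 8 but far apart. On GRCm38.p6 the 3p arm begins at base 107551288, and the Palld promoter windows lie between bases 61591090 and 61902957.

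RefSeq promoter windows, from 250 bases before to 50 after a gene's start on GRCm38.p6, were matched for 7 of the 9 genes, with 3 starts for Palld. No window was matched for Tagln or Myo1d. The windows were searched on both strands for the CArG box and for CATTCC, the core of the element bound by TEAD factors. Neither motif lies within the other. The CArG box was read strictly, as CC, a fixed run of A or T alone, and GG, with no mismatch. The Palld windows are shown because, of the 9, this gene differed most between the mutant effects, and the Lmcd1 and Myl9 windows because they held the CArG boxes. Capitals mark the motifs, and each sequence is written 5′ to 3′ on the gene's strand.
Palld start 1, chr8:61902658-61902957, minus strand: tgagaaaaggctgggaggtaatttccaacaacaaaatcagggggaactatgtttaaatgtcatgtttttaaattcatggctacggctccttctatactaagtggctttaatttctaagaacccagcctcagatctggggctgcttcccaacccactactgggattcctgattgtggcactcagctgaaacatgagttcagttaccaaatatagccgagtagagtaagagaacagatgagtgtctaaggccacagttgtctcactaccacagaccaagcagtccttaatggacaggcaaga
Palld start 2, chr8:61760040-61760339, minus strand: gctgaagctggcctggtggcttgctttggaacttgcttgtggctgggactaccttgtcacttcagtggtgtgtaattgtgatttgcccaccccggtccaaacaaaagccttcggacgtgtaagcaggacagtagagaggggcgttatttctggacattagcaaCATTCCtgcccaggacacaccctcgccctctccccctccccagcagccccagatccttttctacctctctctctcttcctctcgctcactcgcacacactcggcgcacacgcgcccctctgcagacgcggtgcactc
Palld start 3, chr8:61591090-61591389, minus strand: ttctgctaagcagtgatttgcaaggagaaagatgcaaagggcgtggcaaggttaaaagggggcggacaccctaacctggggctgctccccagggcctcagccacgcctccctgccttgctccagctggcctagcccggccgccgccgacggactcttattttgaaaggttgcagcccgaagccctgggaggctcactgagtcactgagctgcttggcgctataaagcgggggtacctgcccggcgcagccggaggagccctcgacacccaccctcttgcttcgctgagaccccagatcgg
Lmcd1, chr6:112273508-112273807, plus strand: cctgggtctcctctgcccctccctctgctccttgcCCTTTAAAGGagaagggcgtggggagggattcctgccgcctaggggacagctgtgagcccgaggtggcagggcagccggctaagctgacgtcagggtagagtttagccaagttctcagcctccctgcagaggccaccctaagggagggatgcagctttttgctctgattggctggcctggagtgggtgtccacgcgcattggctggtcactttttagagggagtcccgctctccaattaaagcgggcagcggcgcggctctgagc
Myl9, chr2:156775214-156775513, plus strand: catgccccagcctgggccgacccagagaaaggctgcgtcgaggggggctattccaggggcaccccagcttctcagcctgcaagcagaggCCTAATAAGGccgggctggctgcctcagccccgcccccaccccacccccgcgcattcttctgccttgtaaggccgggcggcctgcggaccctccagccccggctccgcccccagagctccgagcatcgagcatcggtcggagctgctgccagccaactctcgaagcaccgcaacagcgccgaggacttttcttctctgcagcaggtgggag
CArG boxes were found in Lmcd1 (CCTTTAAAGG, first base at -215 from the start) and Myl9 (CCTAATAAGG, at -161), against 1.63% of all 32851 windows. The Palld windows held no CArG box of this strict form. Looser forms of the box were not searched for in any window. CATTCC was found at Palld start 2, in capitals above, and on the opposite strand at Acta2 and Tpm1, against 14.7% of all windows.

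Palld had 151 and 138 CPM (counts scaled to the TMM-adjusted library size) in the 2 CG mutant libraries, against 72.6 and 49.2 CPM in the CG wild types. In the other line it had 43.6 and 42.4 CPM in the CT mutants, against 101 and 106 CPM in the CT wild types. Palld was thus higher in mutants of the CG line and lower in mutants of the CT line, and no library of one group overlapped a library of another. From highest to lowest the group means were 144 ± 9.62 CPM in the CG mutants, 104 ± 3.82 in CT wild types, 60.9 ± 16.6 in CG wild types and 43 ± 0.806 in CT mutants (SD, n = 2). The fitted log2 fold change was 1.24 ± 0.17 (SE) in the CG line, a 2.37-fold level, and -1.27 ± 0.17 in the CT line, a 0.414-fold level. The difference between these mutant effects was 2.52 ± 0.23. In the authors' deposited table of comparisons, which lists 2655 genes, Palld stands at log2 ratios of 1.24 and -1.27, with -1.74 for CT mutants over CG mutants. The ratio of Palld's count to its FPKM differed little between libraries, and implied a transcript length of 4138 to 4155 bases in all 8, and gene-level counts do not separate the 3 starts.

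Lmcd1 had 77 and 58.8 CPM in the CG mutants, against 24.7 and 24.9 CPM in the CG wild types. In the other line it had 47.2 and 39 CPM in the CT mutants, against 47.8 and 37.6 CPM in the CT wild types. Lmcd1 was higher in both CG mutants, while the libraries of the CT line overlapped. The log2 fold change was 1.45 ± 0.17 in the CG line and 0.01 ± 0.17 in the CT line, and the difference between them was 1.44 ± 0.24. The CG wild types were the lowest group for Lmcd1, whereas CT mutants were the lowest for Palld. As FPKM, which are scaled by length, Palld stood at 0.775 and 0.923 times Lmcd1 in CG mutants and 1.17 and 0.78 times in CG wild types. The ratio was 0.364 and 0.429 in CT mutants and 0.833 and 1.11 in CT wild types, so both CT mutants had less palladin transcript per Lmcd1 transcript than any other library.

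Myo1d, a single-headed class I myosin that links actin to membranes, had 136 and 116 CPM in the CG mutants, against 128 and 123 CPM in the CG wild types. It had 70 and 73 CPM in the CT mutants, against 107 and 99.6 CPM in the CT wild types. Myo1d was lower in both CT mutants than in any other library, and the CG groups overlapped. The log2 fold change was 0 ± 0.10 in the CG line and -0.53 ± 0.10 in the CT line.

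**Figure D1:**
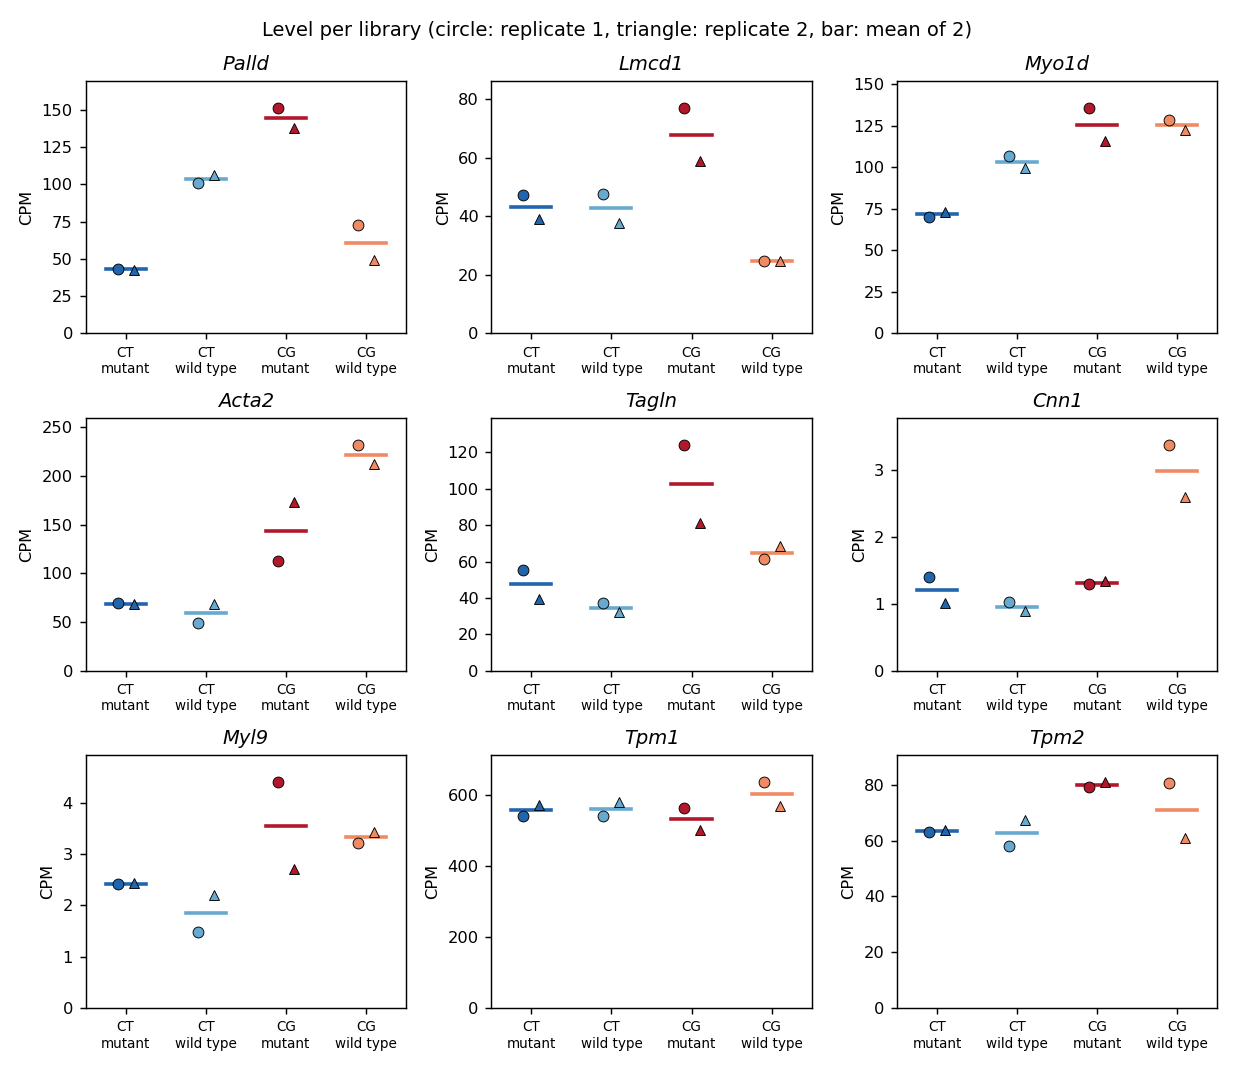
Level of each of the 9 genes in every library, in CPM (y axis from 0) by group, with replicate 1 as a circle, replicate 2 as a triangle and a bar at the mean of 2. Palld is highest in CG mutants (mean 144) and lowest in CT mutants (mean 43), and Acta2 is highest in CG wild types (mean 222).

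The contractile genes did not pass the test in either mutant line. None of the 6 reached an adjusted p under 0.05 (edgeR quasi-likelihood test) in the CG line, where 1 of 14359 genes did (0.00696%). An unadjusted p under 0.05 was found for 3 of them (1633 of all genes). DESeq2 and limma also passed none. The DESeq2 adjusted p was 0.069 for Acta2 and 0.0881 for Tagln, and DESeq2 gave none for Cnn1. In the CT line none passed either, against 1 gene overall (0.00696%), with 0 of the 6 under an unadjusted 0.05 (734 of all genes) and none by DESeq2. For the difference between the mutant effects none of the 6 passed, against 3 genes overall (0.0209%, of which 0.0139% lower), with 2 under an unadjusted 0.05 (687 of all genes) and none by DESeq2. The median log2 fold change of the 6 was -0.04 in the CG line and 0.29 in the CT line, beside 0 in each over all genes tested.

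Acta2 encodes smooth muscle alpha-actin, the actin isoform of contractile stress fibres. It had 113 and 174 CPM in the CG mutants, against 232 and 212 CPM in the CG wild types. The CG mutants lay below both of their wild types, with a log2 fold change of -0.63 ± 0.21 (edgeR adjusted p = 0.343). In the other line it had 69.5 and 68.2 CPM in the CT mutants, against 49 and 68.4 CPM in the CT wild types, which overlapped (log2 fold change 0.23 ± 0.21, edgeR adjusted p = 0.976).

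Tagln, also called SM22, binds and bundles actin filaments and is often read together with Acta2. It had 124 and 81.3 CPM in the CG mutants, against 61.4 and 68.5 CPM in the CG wild types, and 55.5 and 39.3 CPM in the CT mutants, against 37.1 and 32 CPM in the CT wild types. Tagln lay above both wild types in each mutant group, but the log2 fold changes of 0.66 ± 0.22 in the CG line and 0.46 ± 0.22 in the CT line had edgeR adjusted p = 0.343 and 0.958. Acta2 and Tagln therefore stood on opposite sides of their wild types in the CG line. The FPKM ratio of Acta2 to Tagln was 0.627 and 1.47 in CG mutants, against 2.61 and 2.09 in CG wild types, and 0.866 and 1.15 in CT mutants, against 0.931 and 1.46 in CT wild types. Of Tagln's 1988 annotated exon bases, 1241 are shared with Gm48529, an antisense gene not in the count table, and 108 with Pcsk7, both on the other strand, and no source used here gives the strand used in counting. Reads of these overlaps cannot be told apart, so the Tagln values are uncertain. Pcsk7 itself had 43 and 39.3 CPM in the CG mutants, against 40.4 and 38.2 CPM in the CG wild types.

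Cnn1 encodes calponin, which binds actin and slows the myosin motor, and it was close to the lower end of detection. The counts behind it were 31 and 35 reads in CG mutants, against 93 and 65 in CG wild types, and 43 and 30 in CT mutants, against 29 and 26 in CT wild types. Its levels were 1.31 ± 0.0339 CPM in the CG mutants and 2.98 ± 0.547 CPM in the CG wild types (SD, n = 2). The libraries did not overlap, with a log2 fold change of -1.18 ± 0.30 (edgeR adjusted p = 0.251). In the CT line the log2 fold change was 0.34 ± 0.31 (edgeR adjusted p = 0.976).

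Myl9 encodes a regulatory light chain of non-muscle and smooth muscle myosin. It had 4.41 and 2.71 CPM in the CG mutants, against 3.22 and 3.43 CPM in the CG wild types, and the 2 mutant libraries lay on either side of their wild types. It had 2.42 and 2.44 CPM in the CT mutants, against 1.48 and 2.21 CPM in the CT wild types. The log2 fold changes were 0.09 ± 0.30 in the CG line (edgeR adjusted p = 0.93) and 0.39 ± 0.31 in the CT line (edgeR adjusted p = 0.976).

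Tpm1 and Tpm2 encode tropomyosins, coiled rods that lie along actin filaments and govern access of myosin. Tpm1 was the most abundant member, at a mean of 349 FPKM over the 8 libraries, beside 55.3 for Acta2, 43.3 for Tpm2, 40.7 for Tagln, 27.1 for Lmcd1, 22.3 for Myo1d, 20.9 for Palld, 2.76 for Myl9 and 1.16 for Cnn1. Tpm1 had 533 ± 43.3 CPM in the CG mutants and 603 ± 47.4 CPM in the CG wild types, and 558 ± 21.8 CPM in the CT mutants and 562 ± 29.6 CPM in the CT wild types (SD, n = 2). Tpm2 had 80.1 ± 1.2 CPM in the CG mutants and 70.8 ± 13.8 CPM in the CG wild types, and 63.4 ± 0.467 CPM in the CT mutants and 62.6 ± 6.5 CPM in the CT wild types (SD, n = 2). These were the steadiest of the 9 genes, with a 1.27-fold span between the lowest and highest library for Tpm1 and 1.39-fold for Tpm2, beside 4.72-fold for Acta2 and 3.56-fold for Palld. Their log2 fold changes lay between -0.18 and 0.18 in the mutant comparisons, with edgeR adjusted p from 0.562 to 0.998.

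Among the 6 contractile genes in the CG line, the libraries did not overlap for Tagln (higher in CG mutants) and for Acta2, Cnn1 and Tpm1 (lower). Among all genes tested 45.6% had such a gap, 23.2% higher and 22.5% lower. In the CT line there was a gap for Tagln and Myl9 (higher in CT mutants), against 33.6% of all genes (17.2% higher and 16.3% lower). With 2 libraries a group, a gap of this kind was common. Gaps were also present for Palld and Lmcd1 in the CG line and for Palld and Myo1d in the CT line. These genes were picked by mutant differences in the same libraries, so their gaps are not set against those shares.

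**Figure D2:**
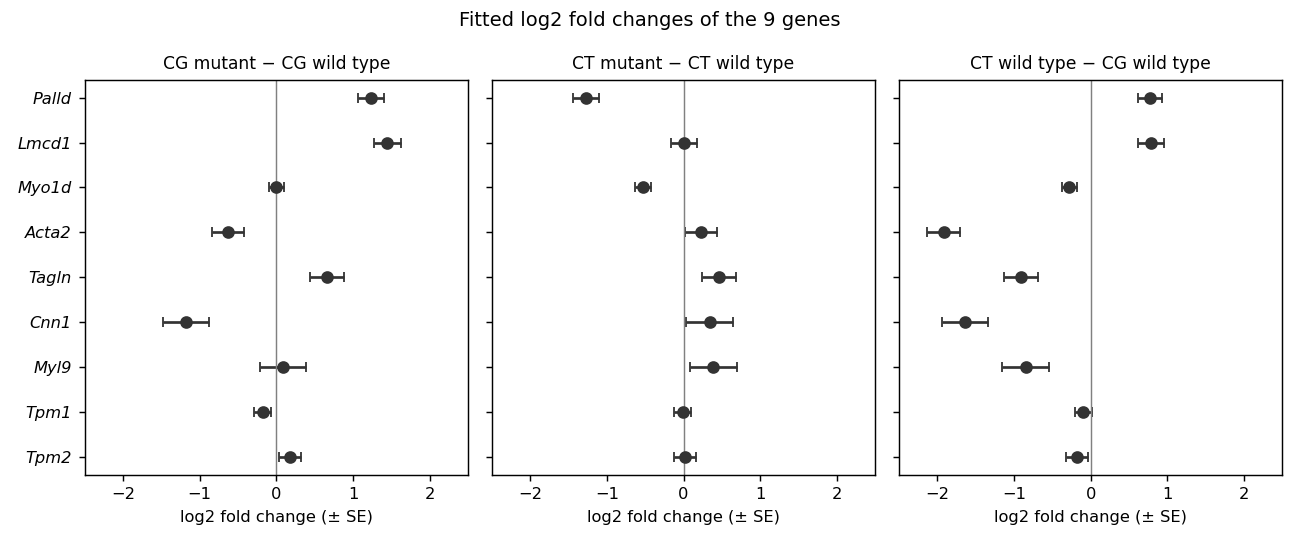
Fitted log2 fold change of each of the 9 genes (x axis, bars ± SE) in the 3 comparisons named above the panels. Palld lies at 1.24 in the CG line and -1.27 in the CT line, and Acta2, Cnn1, Tagln and Myl9 lie to the left of 0 between the wild types.

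The wild types of the lines differed far more widely than mutants did from them. Between CT wild types and CG wild types 4843 of 14359 genes passed (33.7%), 17% higher and 16.8% lower in CT wild types. Of the calls 50.3% were higher, and 67.5% with limma on log2(FPKM + 1), which moved the median of all genes to 0.09. The number of calls was 2431 without CG wild type replicate 1, 2137 without the second CG wild type and 3092 without the second CT wild type, and line, litter and preparation cannot be told apart here. Of the 6 contractile genes 3 passed, all lower in CT wild types, with a median log2 fold change of -0.88 over the 6 beside 0 over all genes. Acta2 had 49 and 68.4 CPM in the CT wild types, against 232 and 212 CPM in the CG wild types, a 0.265-fold level (log2 fold change -1.92 ± 0.22, edgeR adjusted p = 0.00085). Cnn1 had 0.953 ± 0.0984 CPM in the CT wild types and 2.98 ± 0.547 CPM in the CG wild types (log2 fold change -1.64 ± 0.30, edgeR adjusted p = 0.00561). Tagln had 34.6 ± 3.64 CPM in the CT wild types and 64.9 ± 5.02 CPM in the CG wild types (log2 fold change -0.91 ± 0.22, edgeR adjusted p = 0.0175). The Tagln call was lost without CG wild type replicate 1 (edgeR adjusted p = 0.054), the second CG wild type (0.0925) or the second CT wild type (0.0964). Myl9, at a log2 fold change of -0.85 ± 0.31, did not pass (edgeR adjusted p = 0.0676), nor did Tpm1 at -0.10 ± 0.11 (0.49) and Tpm2 at -0.18 ± 0.14 (0.342). Palld and Lmcd1 lay on the other side, higher in both CT wild types by 0.77 ± 0.16 and 0.78 ± 0.17 on the log2 scale, and Myo1d lay at -0.28 ± 0.10. Libraries of the wild types did not overlap for 7 of the 9 genes, against 71.1% of all genes (35.7% higher and 35.5% lower).

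Other cell types that express contractile genes were read from marker lists. The skeletal muscle list, of which 9 of 14 genes passed the low-count filter, summed to 9.44 to 47.3 FPKM in CG mutants and 30.3 to 32.4 FPKM in CG wild types, and to 9.67 to 10.5 FPKM in CT mutants and 9.45 to 10.9 FPKM in CT wild types. Of its 9 tested genes 5 were lower and 1 higher in CT wild types than in CG wild types by edgeR, a comparison in which 33.7% of all genes passed and 16.8% were lower. The 5 were Acta1, Actc1, Myh3, Myog and Myod1, and the 1 was Tnnt3. Myog had 3.44 and 3.5 FPKM in CG wild types, against 0.16 and 0.29 FPKM in CT wild types. Myod1, the myogenic transcription factor, had 4.91 and 26.2 FPKM in CG mutants and 19.7 and 16.6 FPKM in CG wild types, and 2.87 and 5.1 FPKM in CT mutants and 3.97 and 5.76 FPKM in CT wild types. The muscle filament genes Myh4 and Myh1 did not pass the low-count filter and were never above 0.01 and 0.04 FPKM. Myod1 with the actin gene Acta1 made up most of the sum. Acta2 and Myod1 both stood higher in CG wild types than in the CT line, and in CG mutant replicate 2 than in replicate 1; the part of these cells in the Acta2 values was not tested. Myod1 and Des were picked for display after their values were seen.

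Markers of smooth muscle and pericytes were uneven in level. Myh11, the smooth muscle myosin that defines that lineage, lay between 0.07 and 0.22 FPKM in all 8 libraries. The list of 11 genes summed to 299 to 313 FPKM in CG mutants and 255 to 258 FPKM in CG wild types, and to 191 to 203 FPKM in CT mutants and 182 to 193 FPKM in CT wild types, most of it Cspg4, which chondrocytes also express. Of the 11 genes 2 (Cspg4 and Pdgfrb) were lower in CT wild types than in CG wild types by edgeR (18.2%, against 33.7% of all genes either way and 16.8% lower), and none was higher. None of the 11 had a log2 fold change above 0 between the wild types, where 50.2% of all genes did. Their median was -0.65, beside 0.003 over all genes. The chondrocyte list summed to 6300 to 9700 FPKM in CG mutants and 6260 to 6640 FPKM in CG wild types, most of it Col2a1. In the other line it summed to 9250 to 9370 FPKM in CT mutants and 11400 to 13300 FPKM in CT wild types, again mostly Col2a1. By edgeR, 5 of its 10 genes were higher in CT than in CG wild types and 0 lower (50%, against 33.7% of all genes). The fibroblast list summed to 1370 to 1780 FPKM in CG mutants and 1770 FPKM in each CG wild type, and to 969 to 1050 FPKM in CT mutants and 979 to 1080 FPKM in CT wild types. Dcn made up most of it in the CG line. By edgeR, 3 of the 10 fibroblast genes (Col1a1, Col1a2 and Fap) were higher in CT than in CG wild types. Dcn, at a log2 fold change of -2.23, was the 1 that was lower. Those that passed were 40% of the list, against 33.7% of all genes. In bulk RNA fewer cells of a type and less RNA per cell cannot be told apart, and the part of these cell types in the contractile values was not tested.

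**Figure D3:**
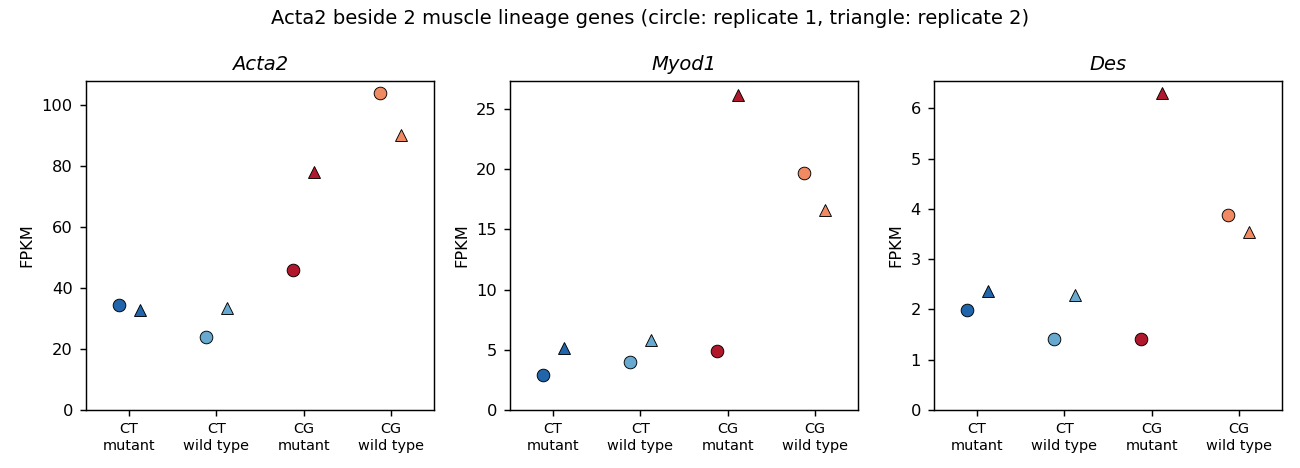
FPKM (y axes from 0) of Acta2, Myod1 and Des, which encodes the muscle filament desmin, in every library by group, with replicate 1 as a circle and replicate 2 as a triangle. CG mutant replicate 2 exceeds replicate 1 in all 3 genes, and the CT libraries stay at or below 34.3 FPKM for Acta2 and 5.76 FPKM for Myod1.

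For Palld and Lmcd1 both CG mutants lay above both CG wild types, so leaving out either CG mutant could hardly change the side. Without replicate 1 the Palld log2 fold change in the CG line was 1.18 and that of Lmcd1 1.24, and without replicate 2 they were 1.32 and 1.64. Without CG mutant replicate 2, Acta2 at -0.97 (edgeR adjusted p = 0.0351) and Tagln at 0.94 (0.043) passed in the CG line, in a fit in which 522 genes passed overall. Without CG mutant replicate 1 they lay at -0.36 (edgeR adjusted p = 0.917) and 0.32 (0.961). In either fit the lone CG mutant is assumed to vary like the other groups. Palld was 72.6 CPM in the CG wild type with hardly any Ddx3y reads and 49.2 CPM in the other. In the CT line, where replicate 2 had few Ddx3y reads in both groups, Palld differed little between replicates, at 43.6 and 42.4 CPM in the CT mutants and 101 and 106 CPM in the CT wild types. The Palld log2 fold change was 1.55 without CG wild type replicate 1 and 1 without replicate 2.

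In the wider set of contractile and stress fibre genes, differences that passed the test also lay between the lines. The set held 36 genes beside the members, all of them tested. By edgeR none passed in either mutant comparison or in the difference. Those under an unadjusted edgeR p of 0.05 were 9, 2 and 2, against 1633, 734 and 687 of all 14359 genes. DESeq2 passed 3, 0 and 0 of the set, where it passed 213, 20 and 38 of all genes. The 3 were Pdlim5, Myh10 and Cnn2. The smallest adjusted p was that of Pdlim5, a PDZ and LIM protein of the Z-disc, at -0.50 ± 0.08 in the CG line (edgeR adjusted p = 0.145). Myh10, a non-muscle myosin heavy chain, lay at 0.62 ± 0.14 (0.24) and the calponin Cnn2 at 0.63 ± 0.19 (0.302). Between the wild types 14 of the 36 passed (38.9%, against 33.7% of all genes), and the median log2 fold change was -0.16. The count was 5 without CG wild type replicate 1 and 8 without any other 1 of the wild type libraries. The 9 that were lower in CT wild types were Csrp1, the actin cross-linker Flna (-0.90 ± 0.12, edgeR adjusted p = 0.00147), Pdlim5 (-0.85, 0.000494), the adhesion protein Zyx (-0.79 ± 0.10, 0.0014), Cald1, Lpp, Myh9, Actg1 and Pdlim7. The 5 that were higher were Synpo (0.78, 0.00181), Pdlim1, Myh10 (0.69 ± 0.14, 0.00869), Lasp1 and Vasp. The summed level of the list, most of it from Actb and Actg1, differed little. It was 8120 to 8150 FPKM in CG mutants and 8080 to 8430 FPKM in CG wild types. In the other line it was 7680 to 8040 FPKM in CT mutants and 7310 to 7990 FPKM in CT wild types.

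**Figure D4:**
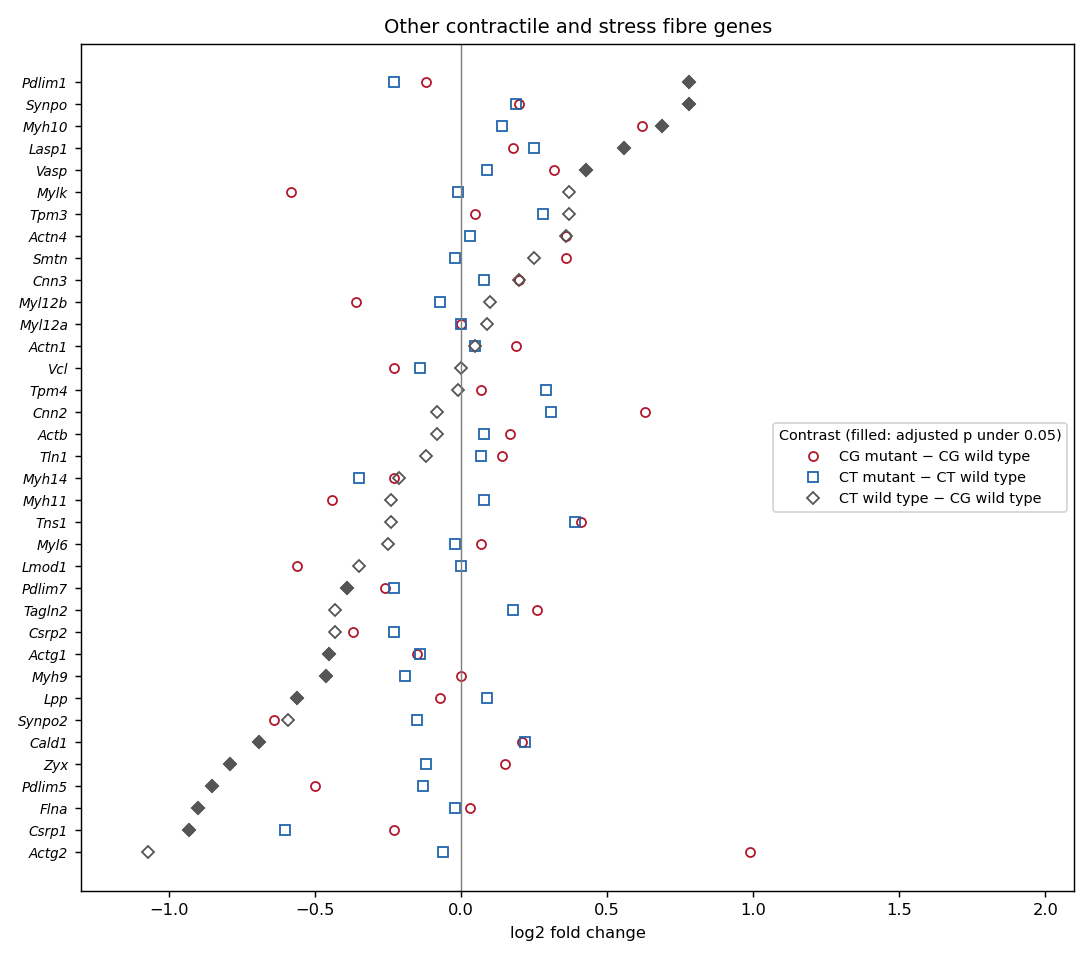
Log2 fold changes (x axis) of 36 further contractile and stress fibre genes in 3 comparisons, sorted by the difference between the wild types, with filled symbols for an adjusted p under 0.05. Filled symbols occur between the wild types alone, 9 to the left of 0 and 5 to the right.

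Among partners of palladin, 11 of 12 listed genes were tested and none passed in a mutant comparison by edgeR. By edgeR 4 in the CG line and 1 in the CT line had an unadjusted p under 0.05 (1633 and 734 of all 14359 genes). DESeq2 passed 1, Sorbs2, in the CG line, where it passed 213 of all genes, and 0 in the CT line. Sorbs2, an adaptor of stress fibres and the Z-disc, lay at 0.93 ± 0.28 in the CG line and 0.69 ± 0.28 in the CT line, on the same side of 0 in both lines, where palladin lay on opposite sides. The palladin relatives Mypn and Myot were at most 0.15 and 0.04 FPKM, where Palld averaged 20.9 FPKM. Between the wild types 7 of the 11 passed (63.6%, against 33.7% of all genes), with Ezr (0.94, edgeR adjusted p = 0.00244), Eps8 (0.63, 0.00249) and Pfn1 (0.60, 0.00461) among the 5 higher in CT wild types and Pdlim3 (-2.5, 0.0327) among the 2 lower.

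Regulators and targets of SRF and its cofactors were followed through 16 tested genes of 17. Srf itself lay between 40.1 and 60.9 FPKM in all libraries, and Myocd, the muscle cofactor, was at most 0.05 FPKM. None passed in a mutant comparison by edgeR or DESeq2. By edgeR 3 in the CG line and 2 in the CT line had an unadjusted p under 0.05 (1633 and 734 of all genes). Between the wild types 6 of the 16 passed (37.5%, close to the 33.7% of all genes). Of these 4 were lower in CT wild types, namely Fhl2 (-0.98 ± 0.10, edgeR adjusted p = 0.000611), Ctgf (-0.90 ± 0.18, 0.00747), Ankrd1 (-2.29 ± 0.59, 0.0209) and Zyx. The early response gene Egr1 (1.73 ± 0.17, 0.000547) and the YAP relative Wwtr1 (0.45, 0.0168) were higher. The median log2 fold change of the 16 was -0.28 between the wild types, beside -0.04 in the CG line and -0.01 in the CT line.

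LIM proteins and the calcineurin and GATA pathway on which Lmcd1 acts were followed through 14 tested genes of 15. None passed in a mutant comparison by edgeR or DESeq2. By edgeR 0 in the CG line and 2 in the CT line had an unadjusted p under 0.05 (1633 and 734 of all genes). Fhl1 lay at -0.47 ± 0.20 in the CG line (edgeR adjusted p = 0.44) and -0.57 ± 0.19 in the CT line (0.958). Gata6 lay between 0.52 and 1.19 FPKM and Gata4 at most 0.09 FPKM. Between the wild types 7 of the 14 passed (50%, against 33.7% of all genes), with Nfatc1 (-1.75, 0.000337), the calcineurin subunit Ppp3ca (-0.89, 0.00658), the calcineurin inhibitor Rcan1 (-0.83, 0.0202) and Fhl2 lower in CT wild types and Nfatc2 (1.38, 0.034), Fhl1 (1.36, 0.00198) and Crip2 (0.84, 0.00176) higher (edgeR adjusted p in each). Of 6 other class I myosins tested, of 7 listed, none passed in a mutant comparison by edgeR or DESeq2. Their counts under an unadjusted p of 0.05 by edgeR were 0 and 2, against 1633 and 734 of all genes. Between the wild types Myo1f (2.51 ± 0.51, edgeR adjusted p = 0.00845) and Myo1g (1.75 ± 0.37, 0.00999) were among those higher in CT wild types, where Myo1d lay at -0.28. Both are myosins of blood cells, and 4 of 8 leukocyte markers were also higher there and 1 lower (edgeR; 33.7% of all genes passed), with Ptprc at 2.37 (edgeR adjusted p = 0.00806), Itgam at 2.04 (0.0133) and Tyrobp at 2.16 (0.0326). The leukocyte list summed to 188 to 295 FPKM in CG mutants and 294 to 354 FPKM in CG wild types, and to 241 to 256 FPKM in CT mutants and 228 to 242 FPKM in CT wild types, most of it Cd14, the marker that was lower in CT wild types. No marker was at 0, and the part of such cells in the myosin values was not tested.

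Profiles over the 8 libraries were compared by the root-mean-square (RMS) difference of log2 CPM after centring each gene on its mean. Among the members Tpm1 and Tpm2 were nearest each other, at 0.2, both being flat. Tagln was nearest to Myl9, at 0.35, and Acta2 to Cnn1, at 0.43. Palld was 0.57 from Lmcd1, 0.54 from Myo1d, 0.61 from Tpm2 and 1.03 from Acta2, beside a median of 0.75 to all genes tested. Palld, Lmcd1 and Myo1d were picked on these same libraries, so the distances between them are a description. The genes nearest to Palld were Trim34b at 0.36, Cfap54 at 0.39, Catspere2 at 0.4, Isoc2b at 0.42 and Zfp941 at 0.42. All 5 lay at or below 1.64 CPM, near the lower end of the genes tested. The genes nearest to Acta2 were Dnmt3l at 0.17, Ttc39c, Podn and Ildr2 at 0.18 each and Slco3a1 at 0.19, beside a median of 0.84 to all genes tested. Podn, which encodes a small leucine-rich matrix proteoglycan, had 9.1 and 17 CPM in the CG mutants, against 17.6 and 18.5 CPM in the CG wild types, and 6.8 and 6.7 CPM in the CT mutants, against 5.57 CPM in each of the CT wild types. Like Acta2 it was lowest within the CG line in CG mutant replicate 1, but it was chosen for its likeness to Acta2 over these same libraries. Ildr2, at or below 1.77 CPM, also lay near the lower end of the genes tested.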

How the data were processed

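RNA was measured by sequencing (DNBSEQ, per the series design text) in 8 libraries, grouped by their titles. HISAT2 2.0.4 and mm9 are listed in the submitters' processing notes, and no source used here gives the counter or annotation. Per the file headers, the authors' table holds an estimated count and an FPKM for each gene in each library; they also deposited a table of log2 ratios with q-values for 2655 genes. The estimated counts were not normalized by the authors, were not whole for 2282 to 2518 genes a library, and were rounded. For 24 genes whose symbols had become dates, the symbol was looked up by Entrez ID.

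All tests used the quasi-likelihood F test of edgeR 4.0.16 in R 4.3.3, with 4 group means over the 8 libraries, TMM factors, the default low-count filter and Benjamini-Hochberg adjustment over 14359 genes at a threshold of 0.05, with 4 residual degrees of freedom. A standard error is the size of the log2 fold change over the root of F. DESeq2 1.42.0, limma 3.58.1 on log2(FPKM + 1) or log2(FPKM + 0.1), other scaling and filters, a replicate block and leaving out each library were alternatives. The test was tried on simulated data. Coordinates are those of RefSeq and GENCODE on GRCm38 and were not joined to the deposited counts.

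The members and gene lists were chosen with earlier results of these data known. Named from each list were genes past the threshold and up to 3 with the smallest unadjusted p in each contrast, given here in part; 1 gene is not reported here. Profiles were compared on log2 CPM with a prior count of 0.5.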

Additional observations from a re-analysis of the deposited data

Results flagged for a closer look

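Palld lay higher in both CG mutants than in both CG wild types and lower in both CT mutants than in both CT wild types, and the mutant effects differed by 2.52 on the log2 scale. It was picked for this pattern, so the difference is a description and carries no test here. Leaving out 1 library at a time gave differences from 2.27 to 2.83.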

How the results depend on the processing

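Of 354 recalculated log2 fold changes of the 6 contractile genes, 13 took the opposite sign, 4 came to pass the threshold and 3 no longer passed it. Of 177 of Palld, Lmcd1 and Myo1d, for which no test is given, 2 took the opposite sign, both of Lmcd1 in the CT line (-0.13 and -0.15). The number of genes called in the CG line was 1, and became 13 with no filter, 213 with DESeq2, 4 with limma on log2(FPKM + 1), 3 on log2(FPKM + 0.1) and 1 to 522 without 1 library (522 without CG mutant replicate 2). In the CT line it was 1, and became 2 with no filter, 20 with DESeq2, 3 with only the 4 libraries compared, 3 with limma on log2(FPKM + 1) and 0 to 4 without 1 library. For the difference between mutant effects it was 3, and became 5 with no filter, 38 with DESeq2 and 1 to 97 without 1 library (97 without CG mutant replicate 2). Between the wild types it was 4843, and ran from 2137 to 5324 without 1 library. The contractile members past the threshold were 0 to 2 in the CG line and 2 to 4 between the wild types without 1 library. The 36 further contractile and stress fibre genes, recounted after the data were seen, gave 3 with DESeq2 and 0 to 3 without 1 library in the CG line, and 5 to 17 without 1 library between the wild types. The cause of these changes was not tested.

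With the replicate number as a block within each line, the calls were 4 in the CT line, 6 for the difference, 2756 between the wild types and 8 of the 36 further genes between the wild types; the block changed no call of a contractile member. Deviations of same-numbered libraries correlated at -0.077 in the CG line and 0.229 in the CT line, so the numbers were not taken to pair the libraries, although in the CT line replicate 1 of each group had the Ddx3y reads.

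Signs turned for genes near 0. With limma on log2(FPKM + 1) and on log2(FPKM + 0.1), Tpm1 stood at 0.03 in the CT line and 0.02 between the wild types, where the median of all genes moved to 0.09 and 0.13. Leaving out 1 library gave ranges that reached or crossed 0 for Lmcd1 in the CT line (-0.15 to 0.19), Myo1d in the CG line (-0.12 to 0.12), Tpm1 in the CT line (-0.06 to 0.05, also 0.03), Tpm2 in the CG line (0 to 0.39), the CT line (-0.08 to 0.13), the difference (-0.02 to 0.38) and between the wild types (-0.36 to 0.03), Myl9 in the CG line (-0.3 to 0.41) and the difference (-0.68 to 0.02), and Tagln in the difference (-0.13 to 0.49, also -0.02). The difference could not be computed from 4 libraries.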
